A study of Mus musculus with 4 samples.

Results

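The chemokines, the small secreted proteins that direct the migration of immune cells, and their receptors were followed in sorted mouse hair follicle stem cells with and without regulatory T cells. The members were selected by gene symbol: every row of the count table whose name begins with Ccl, Cxcl, Cx3cl, Xcl, Ccr, Cxcr, Cx3cr or Ackr and then a digit. This gave 61 of 24084 gene rows, namely 39 ligands, 18 receptors and 4 atypical receptors. The study profiled hair follicle stem cells sorted from the epidermis of dorsal skin, in C57BL/6 mice 7 to 10 weeks of age, on day 4 after depilation had started hair regrowth. All mice, controls included, received diphtheria toxin intraperitoneally at 15 ng/g. There were 2 WT libraries, A and C, whose label gives regulatory T cells as present, and 2 Foxp3-DTR libraries, C and D, whose label gives them as depleted. In Foxp3-DTR mice the diphtheria toxin receptor is made in Foxp3-expressing cells, the regulatory T cells, so that the toxin kills them. Whether each library is its own animal is not said in the labels, so the p-values reflect how far these libraries spread, and that spread may be technical.

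Chemokines are named for the spacing of their first cysteines: CC (Ccl), CXC (Cxcl), CX3C (Cx3cl) or a lone cysteine (Xcl). They bind G protein-coupled receptors on leukocytes and form gradients on cell surface sugars. Atypical receptors bind chemokines without activating G proteins, and mostly internalize and remove them. In skin, keratinocytes make some ligands constantly and others only after injury, infection or cytokine exposure, and follicle epithelium is a known source of ligands for Langerhans cell precursors and T cells.

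Gene counts per library ranged from 13911765 to 15923154, and levels are given as CPM, the usual depth-scaled count with library sizes adjusted by TMM. Where a library showed 0 counts, its true level could still be that of 3 counts, which is at most 0.213 CPM in any library here. The stem cell markers Krt5, Krt14, Krt15, Cd34, Itga6, Lhx2, Sox9 and Lgr5 had counts in every library, and summed to 26871 to 33416 CPM, mostly keratins. Within this list Lhx2 stood at 789 and 804 CPM in WT against 425 and 439 CPM in Foxp3-DTR, and Cd34 and Itga6 had log2 fold changes of 0.63 ± 0.22 and 0.70 ± 0.21 (edgeR adjusted p = 0.0778, 0.239 and 0.172 for the 3 genes). The suprabasal keratin gene Krt10 was high in WT A (4562 CPM) and Foxp3-DTR D (3796 CPM) and lower in WT C (249 CPM) and Foxp3-DTR C (458 CPM). The 7 T cell markers summed to 5.14 CPM in WT A and to between 0.0615 and 0.928 CPM in the other libraries, with Cd2, Cd4 and Foxp3 at 0 counts in all. The 10 measured myeloid markers summed to 5.17 to 9.08 CPM, with Itgax at 0 counts in all. Cd14 and Cd68 made up most of this sum in Foxp3-DTR, while Fcer1g had 17 and 13 counts in WT against 1 and 0 in Foxp3-DTR, and Csf1r and Tyrobp had 32 and 15 counts in WT A and at most 3 elsewhere. The melanocyte gene Pmel had 40 and 37 counts in WT against 91 and 118 in Foxp3-DTR, and the fibroblast gene Col1a1 214 and 267 against 46 and 81 (edgeR adjusted p = 0.237 and 0.0982). The fibroblast list did not move as 1: Col1a2 had a log2 fold change of -0.44 ± 0.28 and Pdgfra 1.21 ± 0.74 (edgeR adjusted p = 0.575 and 0.548). The part of these cells in the results on chemokines was not tested. The pan-leukocyte marker Ptprc had 24 and 5 counts in WT A and C, and 2 and 0 in Foxp3-DTR C and D. Y-linked Ddx3y had 0 counts in both WT libraries and 1770 and 1178 in Foxp3-DTR C and D, and the titles carry DEP2 for WT and DEP3 for Foxp3-DTR. Sex of the animals, this code and group therefore cannot be told apart in any result. In bulk samples such as these, fewer cells of a type and less RNA per cell cannot be told apart either.

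The comparison asks which chemokine signals the stem cells carry when regulatory T cells are missing. Of the 61 members, 32 had 0 counts in all 4 libraries, 20 had enough counts to be tested and 9 had counts too low to test. Among all gene rows, 34.9% had 0 counts in all libraries. By edgeR's quasi-likelihood test, with p-values adjusted over 12920 genes by the Benjamini-Hochberg method, 4 of the 20 tested members rose in Foxp3-DTR, where 0.82% of all tested genes rose and 1.25% changed in either direction. They were the ligands Ccl27a, Cxcl1, Cxcl16 and Ccl7. In the same test 0 members fell, where 0.426% of all tested genes fell. At an unadjusted p under 0.05, 9 members were higher and 2 lower, against 6.76% and 7.89% of all tested genes. DESeq2 called 8 higher and 2 lower, where it called 3.59% and 3.77% of all genes with an adjusted p. Limma-voom called 1 higher and 0 lower, against 0.542% and 0.178% of all genes. The median log2 fold change of the 20 was 0.91, against -0.01 over all tested genes. Ccl2, Ccl7, Cxcl1 and Cxcr2 had at most 2 counts in WT and passed the filter on low counts through Foxp3-DTR alone. Cxcl10, with 12 and 6 counts in WT A and C, and Ccl20, with 0 and 22, would not have passed on WT counts alone. The numbers of members called and this median therefore describe the tested members only. Without WT A or without Foxp3-DTR C 2 members rose, against 0.993% and 0.497% of all genes in those fits. Without WT C 3 rose, Cxcl12 among them, against 1.43%, and without Foxp3-DTR D 7 rose, against 1.52%, so calls over all genes moved with the library left out as well.

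**Figure D1:**
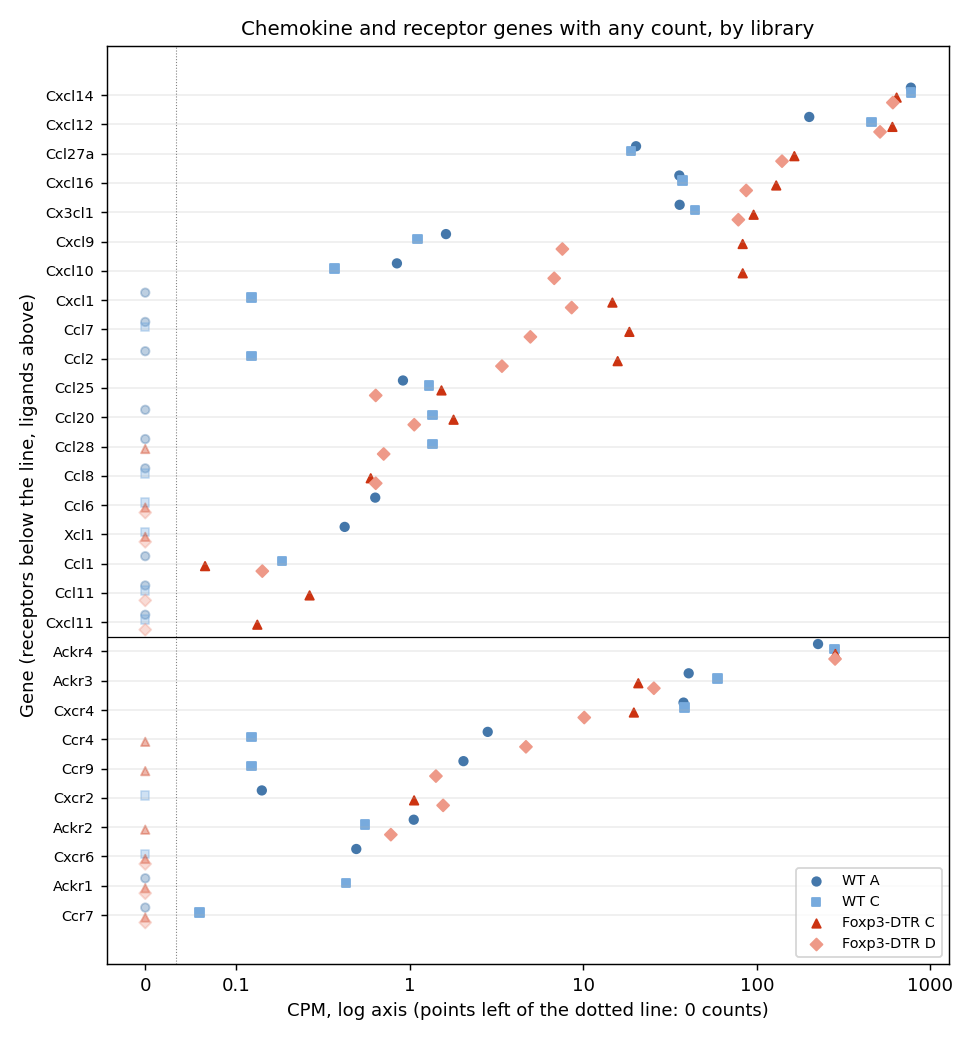
CPM on a log axis for each of the 29 members with any count, 1 point per library, with ligands above the line and receptors below it and 0 counts drawn at the left edge. Ccl27a, Cxcl16, Cx3cl1, Cxcl9 and Cxcl10 are among those that separate by group, as do 45.7% of all tested genes in either direction. Cxcl9 and Cxcl10 are also spread between 6.80 and 82.9 CPM within Foxp3-DTR.

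The silent ligands numbered 20 and the silent receptors 12. Silent ligands were Cxcl2, Cxcl3 and Cxcl5, which attract neutrophils; Ccl3, Ccl4, Ccl5 and Ccl9, which attract monocytes, T cells and other leukocytes; and Ccl12, which attracts monocytes. Ccl17 and Ccl22, which attract T cells with Ccr4 including regulatory T cells, also had 0 counts. The same held for the eosinophil attractants Ccl24 and Ccl26, the B cell attractant Cxcl13, and Cxcl15 and Cxcl17 of lung and mucosa. Ccl19, Ccl21a, Ccl21b and Ccl21c, which guide dendritic cells and T cells with Ccr7, and Ccl27b had 0 counts too. For these last genes a count of 0 says little: 100% of the 50-base words in Ccl21b transcripts, 98.1% in Ccl27b, 71.6% in Ccl21a and 52.0% in Ccl19 also occur in transcripts of other genes, and non-unique alignments, 51.8% to 61.3% of each library's counts, were not assigned to genes. Among the silent receptors were Ccr1, Ccr1l1, Ccr2, Ccr3, Ccr6, Ccr8, Ccr10, Cxcr1, Cxcr3, Cxcr5 and Cx3cr1, which mark myeloid and lymphoid cells.

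Members on only in Foxp3-DTR, with 0 counts in both WT libraries and at least 1 in each Foxp3-DTR library, numbered 2: Ccl7 and Ccl8. Over all gene rows 0.818% had this pattern. Ccl11, an eosinophil attractant through Ccr3, had 4 counts in Foxp3-DTR C and 0 elsewhere, which is 0.265 CPM (exact 95% Poisson interval 0.0723 to 0.679). Cxcl11, a ligand of Cxcr3, had 2 counts in Foxp3-DTR C alone, at 0.133 CPM (0.0161 to 0.479), so its level there lies within what a count of 0 allows elsewhere. These intervals cover counting error only. No member had counts in both WT libraries and 0 in both Foxp3-DTR libraries, where 0.544% of all gene rows did.

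Ccl27a, also called CTACK, is the skin chemokine that draws memory T cells with Ccr10 to the epidermis, and it rose 7.80-fold. The gene lies on mm10 chromosome 4, 41769467 to 41774247, minus strand. Its level was 20.1 and 18.8 CPM in WT A and C, against 164 and 139.6 CPM in Foxp3-DTR C and D. Both Foxp3-DTR libraries were high, the libraries of each group lay close together, and the groups did not overlap. The WT mean was 19.5 ± 0.929 CPM and the Foxp3-DTR mean 152 ± 17.5 CPM (SD, n = 2 each). The log2 fold change was 2.96 ± 0.20 (SE), at an edgeR adjusted p of 0.0033. It passed in every alternative tried, with limma-voom giving an adjusted p of 0.0115. Its level is uncertain, because 45.0% of its 50-base transcript words also occur in transcripts of other genes, among them Ccl27b. Its exons also meet, over 8 bases, those of Il11ra1, the interleukin 11 receptor on the opposite strand. Il11ra1 itself stood at 196 and 211 CPM in WT and at 405 and 404 CPM in Foxp3-DTR (log2 fold change 0.99 ± 0.18, edgeR adjusted p = 0.055), and its part in the Ccl27a counts was not tested.

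Cxcl1, the neutrophil attractant that acts on Cxcr2, rose from near absence. WT A and C had 0 and 2 counts, whereas Foxp3-DTR C and D had 222 and 121, or 14.7 and 8.57 CPM. The groups did not overlap, and the ratio of depth-scaled counts was 179 with an exact 95% counting interval of 49.2 to 1484. The fit gave 7.32 ± 0.95 (SE) on the log2 scale and an edgeR adjusted p of 0.0305, and without Foxp3-DTR C the adjusted p was 0.0433. Limma-voom gave an adjusted p of 0.0802, which did not pass. The gene (chromosome 5, 90891241 to 90893115) sits in a group of 5 CXC genes, Cxcl5, Cxcl3, Cxcl15, Cxcl1 and Cxcl2, and it was the only 1 of the 5 with any count.

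The stretches before the starts of Cxcl1 and of its silent neighbour Cxcl2 are shown because they share a motif match although the genes differ in counts. Each is 100 bases of RefSeq promoter sequence on the plus strand of GRCm38.p6, ending before the annotated exons, with Cxcl1 at chr5:90891141-90891240 and Cxcl2 at chr5:90903771-90903870. Capitals mark matches, on either strand, to a kappaB-like motif, spelled GGG, then any 3 bases, then TTCC, the kind of letters that NF-kappaB factors bind.
Cxcl1: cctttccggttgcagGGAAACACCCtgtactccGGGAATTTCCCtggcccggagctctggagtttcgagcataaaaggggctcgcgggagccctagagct
Cxcl2: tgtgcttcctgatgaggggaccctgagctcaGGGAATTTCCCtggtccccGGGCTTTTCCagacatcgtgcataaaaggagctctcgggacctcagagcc
The 11 capitals GGGAATTTCCC, found in each, hold 2 overlapping matches, 1 on each strand. The other match differs, GGAAACACCC in Cxcl1 and GGGCTTTTCC in Cxcl2. Across 32851 promoters, 4.65% held this motif in the 250 bases before the start. There were 33 promoters of 27 member ligands, and 7 of the 33 held it, each of another gene: Cxcl1, Cxcl10, Ccl20, Ccl1, Cxcl2, Cxcl3 and Ccl9. Of these 7, Cxcl1 passed the test, Cxcl10 and Ccl20 were tested and did not pass, Ccl1 had 3 counts in each group, and Cxcl2, Cxcl3 and Ccl9 had 0 counts. A match is a description of letters and does not show binding.

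Ccl7 and Ccl2, which attract monocytes through Ccr2, and Ccl8, which in mice acts on Ccr8 of T helper cells, lie in a group of 6 CC genes on chromosome 11 (82035571 to 82305690) with Ccl11, Ccl12 and Ccl1. For Ccl7 both WT libraries had 0 counts, while Foxp3-DTR C and D had 278 and 70, or 18.4 and 4.96 CPM. The summed Foxp3-DTR counts of Ccl7 were 121-fold above a floor of 3 counts over the WT group. That fold carries no counting error for Foxp3-DTR and is no strict lower bound. The edgeR adjusted p of Ccl7 was 0.0488. This call is close to the threshold: the adjusted p was 0.0627 without WT A, 0.064 without WT C, 0.0832 without Foxp3-DTR C and 0.126 with limma-voom. Ccl2 had 0, 2, 238 and 48 counts in WT A, WT C, Foxp3-DTR C and Foxp3-DTR D, a ratio of 149 (exact 95% counting interval 40.9 to 1238). Its groups did not overlap, and its edgeR adjusted p of 0.0617 did not pass; it was 0.00188 without Foxp3-DTR D, 0.0227 with no filter on low counts and 7.86e-06 with DESeq2, but 0.133 without WT A, 0.0858 without WT C, 0.275 without Foxp3-DTR C and 0.229 with limma-voom. Ccl8 had 9 counts in each Foxp3-DTR library, 0.597 CPM (0.273 to 1.13) and 0.638 CPM (0.292 to 1.21), and it was too low to test. Its summed counts were 6.26-fold above the same floor, again without counting error for Foxp3-DTR. Ccl1, a ligand of Ccr8, had 3 counts in each group, and Ccl12 had 0. The neighbouring group on chromosome 11 (83525778 to 83664683), Ccl5, Ccl9, Ccl6, Ccl3 and Ccl4, had counts in 1 gene: Ccl6, a myeloid attractant, had 9 counts in WT A alone.

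Cxcl9 and Cxcl10, the interferon-inducible ligands of Cxcr3 that draw activated T cells and natural killer cells, differed widely between the Foxp3-DTR libraries. Cxcl9 stood at 1.62 and 1.11 CPM in WT A and C, against 82.8 and 7.58 CPM in Foxp3-DTR C and D. Cxcl10 ran at 0.845, 0.369, 82.9 and 6.80 CPM in the same order. The groups did not overlap for either gene, and the lower Foxp3-DTR library was 4.68-fold above the higher WT library for Cxcl9 and 8.05-fold for Cxcl10. Between the Foxp3-DTR libraries, however, Cxcl9 differed 10.9-fold and Cxcl10 12.2-fold, and neither passed edgeR's test (adjusted p = 0.272 and 0.248, log2 fold changes 5.05 ± 1.48 and 6.21 ± 1.70). Without Foxp3-DTR D the adjusted p was 3.02e-05 for both, and DESeq2 gave 0.00797 and 0.00175. The other 7 alternatives did not pass for either gene, and without Foxp3-DTR C the log2 fold changes were 2.47 and 3.48. Both genes are within 1 group on chromosome 5 (92321347 to 92365485) with Cxcl11. Exons of Cxcl10 overlap those of Art3 on the opposite strand over 133 bases, and Art3 stood at 9.01 and 23.5 CPM in WT and at 12.7 and 16.7 CPM in Foxp3-DTR.

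Because Cxcl9 and Cxcl10 moved alike across the libraries, 220 bases before each start are printed from RefSeq promoters of GRCm38.p6, both on the minus strand: chr5:92328080-92328299 for Cxcl9 and chr5:92348890-92349109 for Cxcl10. Capitals mark the kappaB-like motif above and an ISRE-like motif, spelled GAAA, then any 2 bases, then GAAA, the letters bound by interferon-activated factors.
Cxcl9: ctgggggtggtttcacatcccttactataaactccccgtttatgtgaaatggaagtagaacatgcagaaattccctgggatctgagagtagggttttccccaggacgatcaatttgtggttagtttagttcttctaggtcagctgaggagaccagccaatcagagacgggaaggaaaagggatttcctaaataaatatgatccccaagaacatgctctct
Cxcl10: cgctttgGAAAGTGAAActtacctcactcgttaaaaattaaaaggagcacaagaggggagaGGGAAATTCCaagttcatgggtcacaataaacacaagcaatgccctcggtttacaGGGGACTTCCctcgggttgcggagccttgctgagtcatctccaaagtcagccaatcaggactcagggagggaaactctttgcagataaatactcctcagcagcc
Cxcl10 held 1 ISRE-like match, GAAAGTGAAA, and 2 kappaB-like matches, GGGAAATTCC and GGGGACTTCC, with no overlap among them. The ISRE-like motif was present in 2.98% of all promoters and in 3 of the 33 member ligand promoters, those of Cxcl10, Ccl19 and Cxcl14. In the Cxcl9 window neither motif was found, nor the GAS-like motif TTCNNNGAA, which 7.02% of all promoters held and which among member ligands was in Ccl17 and Cxcl14.

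Cxcl16 and Cx3cl1 are the chemokines made as membrane proteins, which hold cells that carry Cxcr6 (T cells and natural killer T cells) or Cx3cr1 (monocytes and macrophages) and can be shed. Cxcl16 (chromosome 11, 70453983 to 70459984) rose, from 35.8 and 37.3 CPM in WT A and C to 129 and 86.8 CPM in Foxp3-DTR C and D. The WT libraries were nearly equal and the groups did not overlap, and the log2 fold change was 1.56 ± 0.24 at an edgeR adjusted p of 0.0441. The adjusted p was 0.0587 without WT A, 0.0541 without WT C, 0.133 without Foxp3-DTR C and 0.0604 with limma-voom. Its exons overlap those of Zmynd15 on the opposite strand over 18.3% of their length, and Zmynd15 had at most 65 counts in any library. Cx3cl1 (chromosome 8, 94772009 to 94782427) had 35.9, 44.0, 95.8 and 78.2 CPM in WT A, WT C, Foxp3-DTR C and Foxp3-DTR D. Its groups did not overlap either, and its log2 fold change of 1.12 ± 0.21 had an edgeR adjusted p of 0.063, which did not pass. For Cx3cl1 DESeq2 gave 0.000513 and edgeR with no filter 0.0183, while the other 7 alternatives did not pass, with the highest adjusted p, 0.330, without Foxp3-DTR C.

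**Figure D2:**
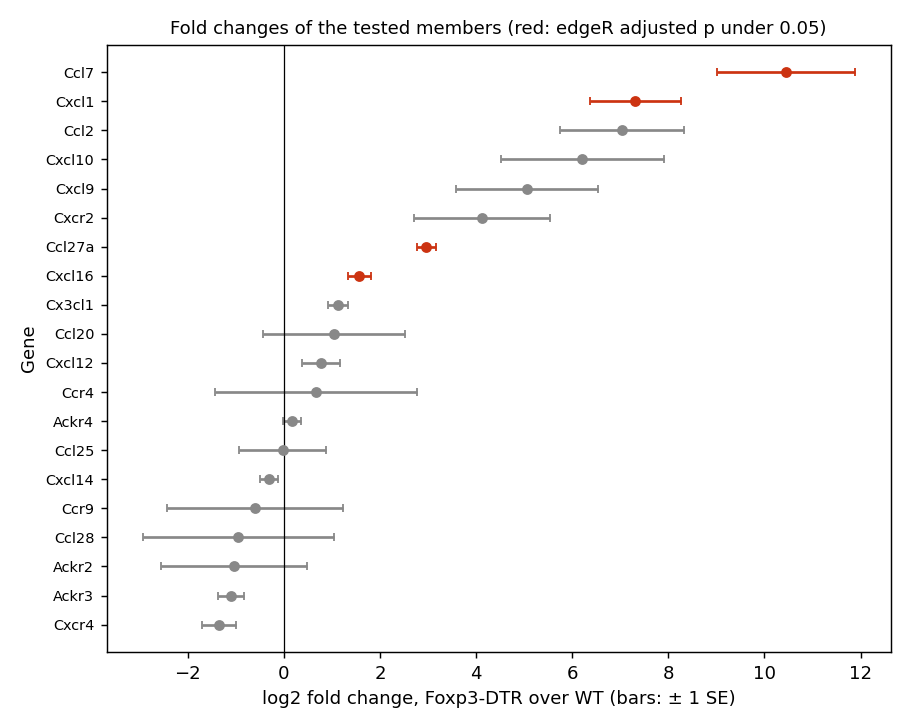
Log2 fold change of Foxp3-DTR over WT for the 20 tested members, with bars of 1 SE on either side and red for an edgeR adjusted p under 0.05. Ccl27a and Cxcl16 pass with short bars, while Cxcl9, Cxcl10 and Ccl2 have larger fold changes and long bars; the value drawn for Ccl7 rests on 0 counts in WT and is no bound.

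Cxcl14 and Cxcl12 were the most abundant ligands, and neither passed. Cxcl14, a constantly made epithelial chemokine that attracts monocytes and dendritic cells, stood at 771 and 772 CPM in WT and at 638 and 607 CPM in Foxp3-DTR (log2 fold change -0.31 ± 0.18, edgeR adjusted p = 0.535). The Foxp3-DTR libraries both lay below WT. Cxcl12, which acts on Cxcr4 and retains many cell types in their niches, had 200.3 and 456 CPM in WT A and C, against 603 and 512 CPM in Foxp3-DTR C and D. WT A was the low library, and the WT libraries differed 2.28-fold. The log2 fold change was 0.77 ± 0.39 (edgeR adjusted p = 0.470); without WT C it was 1.48 with an adjusted p of 0.0321, and without WT A 0.30 with an adjusted p of 0.633.

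The remaining ligands with counts were low. Ccl20, which draws cells with Ccr6 such as Th17 cells, had 0, 22, 27 and 15 counts in WT A, WT C, Foxp3-DTR C and Foxp3-DTR D, and its groups overlapped (edgeR adjusted p = 0.829). Ccl25, a ligand of Ccr9 on thymocytes and gut T cells, had 9 to 23 counts, and Ccl28, a mucosal ligand of Ccr10, had 0 counts in WT A and Foxp3-DTR C and 22 and 10 in the others. Exons of Ccl25 overlap those of Elavl1 on the opposite strand over 204 bases. Elavl1 had 1872, 1952, 1620 and 1524 counts in the order above, and its part in the Ccl25 counts was not tested. The log2 fold changes were 1.05 ± 1.48 for Ccl20, -0.03 ± 0.91 for Ccl25 and -0.95 ± 1.99 for Ccl28, so that changes of several fold in either direction lie within 2 SE. Xcl1, which attracts cross-presenting dendritic cells through Xcr1, had 6 counts in WT A alone. Across ligands, 12 of the 13 tested, all but Ccl28, were higher in Foxp3-DTR C than in Foxp3-DTR D. Cxcl14 and Ccl25, with negative fold changes, were among them. Of the tested receptors, atypical ones included, Ackr2, Ackr3, Ccr4, Ccr9 and Cxcr2 were higher in Foxp3-DTR D, and Ackr4 and Cxcr4 in Foxp3-DTR C. The share of all tested genes higher in Foxp3-DTR C was not computed, so a tilt of the whole library cannot be told apart. Among the tested ligands with positive fold changes, the spread between these libraries was smallest for Ccl27a and Cxcl12, at 1.18-fold. It was 1.22-fold for Cx3cl1, 1.49-fold for Cxcl16, 1.72-fold for Cxcl1, 3.72-fold for Ccl7 and 4.64-fold for Ccl2. The largest spreads were those of Cxcl9 and Cxcl10 above. The neutrophil, T cell and myeloid markers of Foxp3-DTR C summed to 1.46, 0.928 and 5.77 CPM, and those of Foxp3-DTR D to 2.69, 0.354 and 8.79 CPM; their part in these spreads was not tested.

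**Figure D3:**
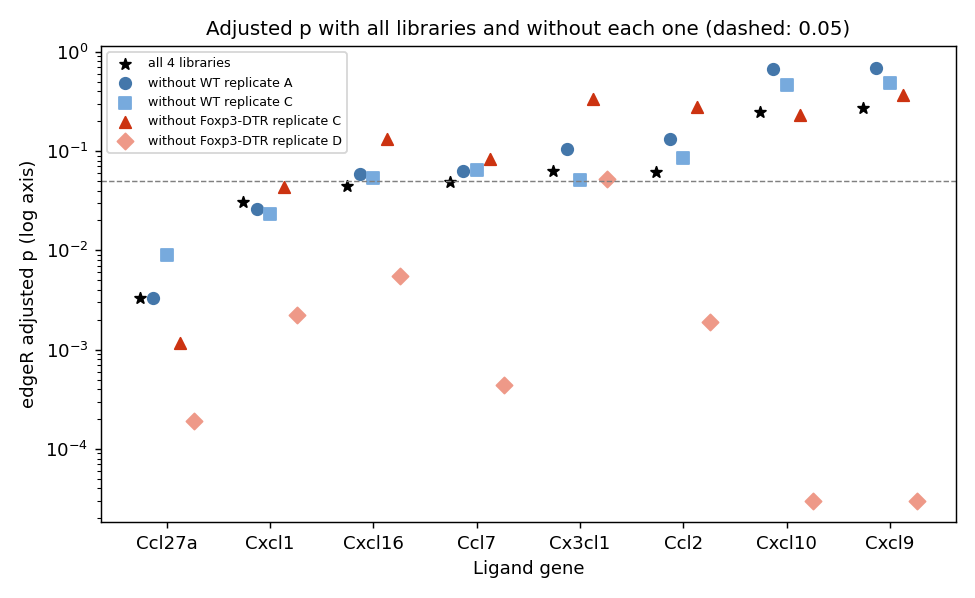
EdgeR adjusted p, on a log axis, of 8 ligands with all 4 libraries (stars) and without each library. Ccl27a and Cxcl1 stay under 0.05 throughout, whereas Cxcl9 and Cxcl10 pass only when Foxp3-DTR D is left out.

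Among signalling receptors, 4 of 18 were tested and 0 passed in edgeR's test; Cxcr2 (higher) and Cxcr4 (lower) had an unadjusted p under 0.05, as did 6.76% and 7.89% of all tested genes in those directions. Cxcr4, the receptor of Cxcl12, was the receptor with the most counts, at 37.8 and 38.2 CPM in WT and 19.6 and 10.1 CPM in Foxp3-DTR. Both Foxp3-DTR libraries lay below WT, with a log2 fold change of -1.35 ± 0.35 and an edgeR adjusted p of 0.124; DESeq2 gave 0.0133, and the other 8 alternatives did not pass. Cxcr2, the neutrophil receptor for Cxcl1, had 2 and 0 counts in WT A and C, against 16 and 22 in Foxp3-DTR C and D. The groups did not overlap, and the ratio was 19.8 (exact 95% counting interval 5.12 to 169.6, edgeR adjusted p = 0.239). Of the neutrophil markers measured beside it, Elane, Retnlg and Csf3r had 0 counts in all 4 libraries, Mpo had 3 counts in Foxp3-DTR C, and S100a8 and S100a9, which keratinocytes also make, had 0 in WT and 2 to 36 in Foxp3-DTR. Whether these markers bear on Cxcr2 was not tested.

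Ccr4, found on skin-homing and regulatory T cells, and Ccr9, found on gut-homing T cells, split the replicates of each group. Ccr4 had 40 and 2 counts in WT A and C and 0 and 66 in Foxp3-DTR C and D, and Ccr9 had 29, 2, 0 and 20 in the same order. The high libraries of both genes, WT A and Foxp3-DTR D, were those with high Krt10. The T cell markers summed to 5.14, 0.0615, 0.928 and 0.354 CPM in the order above. Of them, Cd3g had 50, 0, 2 and 5 counts, and Cd8a had 12 counts in Foxp3-DTR C alone. Slc6a20a, an amino acid transporter whose exons overlap those of Ccr9 on the opposite strand, had 42, 14, 1 and 48 counts in the order above. The part of these other genes in the Ccr4 and Ccr9 counts was not tested, and neither gene passed (edgeR adjusted p = 0.931 and 0.928). Cxcr6, the receptor of Cxcl16, had 7 counts in WT A alone, and Ccr7 had 1 in WT C. Thus Ccl6, Xcl1 and Cxcr6 had counts only in WT A, the library with the highest Ptprc and T cell marker levels; a part of leukocyte RNA in these counts was not tested.

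Some ligands had counts in cells whose matching receptor had none. Ccr10, Ccr2, Cxcr3 and Cx3cr1, the receptors of Ccl27a, of Ccl2 and Ccl7, of Cxcl9 and Cxcl10, and of Cx3cl1, had 0 counts in all 4 libraries. At this depth that allows at most 0.213 CPM in a library. By contrast, Cxcl12 and its receptor Cxcr4 both had counts in all 4 libraries. Cxcl1 and its receptor Cxcr2 had counts together in both Foxp3-DTR libraries and in neither WT library, and Cxcl16 was accompanied by Cxcr6 in WT A alone.

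Of the 4 atypical receptors, 3 were tested and 0 passed in edgeR's test, with Ackr3 lower at an unadjusted p under 0.05, as were 7.89% of all tested genes. Ackr4, which removes Ccl19, Ccl21 and Ccl25 and so shapes the path of dendritic cells, was the most abundant receptor of any kind and stood at 225 and 280.3 CPM in WT and 283 and 282 CPM in Foxp3-DTR. WT A was the low library, and the log2 fold change of 0.16 ± 0.19 did not pass (edgeR adjusted p = 0.787). Exons of Ackr4 overlap those of Acad11 on the opposite strand over 479 bases, and the part of Acad11 in these counts was not tested. Ackr3, which removes Cxcl12, stood at 40.5 and 59.2 CPM in WT and 20.8 and 25.5 CPM in Foxp3-DTR. Both Foxp3-DTR libraries lay below WT, with a log2 fold change of -1.11 ± 0.27 and an edgeR adjusted p of 0.106. DESeq2 gave 0.0137 for Ackr3, and the other 8 alternatives did not pass. Ackr2, which removes inflammatory CC chemokines, had 15, 9, 0 and 11 counts in WT A, WT C, Foxp3-DTR C and Foxp3-DTR D, and Ackr1 had 7 in WT C alone. Of all 20 tested members, 11 were higher in both Foxp3-DTR libraries than in both WT libraries and 3 were lower. Over all tested genes these shares were 22% and 23.7%, or 45.7% in either direction. Among the 11 were Ccl2, Ccl7, Cxcl1 and Cxcr2, which passed the filter on low counts through Foxp3-DTR alone. The 11 therefore describe the tested members only and cannot be read against the 22%.

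Per length, with CPM divided by the kilobases of annotated exons, the order of the levels shifted at the middle of the range. Cxcl14 was highest in both groups, at 422 ± 0.304 CPM per kb in WT and 341 ± 12 in Foxp3-DTR (SD, n = 2). In WT it was followed by Ackr4 at 47.0 ± 7.26 and Cxcl12 at 40.1 ± 22.1, which lay within their spread, and then by Cxcr4 (21.0 ± 0.152), Ackr3 (14.9 ± 3.96), Cxcl16 (12.1 ± 0.353), Cx3cl1 (10.2 ± 1.45) and Ccl27a (8.19 ± 0.391). In Foxp3-DTR Cxcl12 (68.2 ± 7.89) and Ccl27a (63.9 ± 7.38) came next after Cxcl14 and lay within their spread, ahead of Ackr4 at 52.5 ± 0.169. Ccl27a thus went from rank 8 to rank 3, Cxcr4 from 4 to 11 and Ackr3 from 5 to 12. The rank of Ccl27a is uncertain, because 45.0% of its 50-base transcript words also occur in transcripts of other genes. The annotation used for counting was not given, so the exon lengths used here may differ from it. All other members were under 0.5 CPM per kb in WT. Of these, Cxcl10 (19.9 ± 23.9), Cxcl9 (15.0 ± 17.6), Ccl7 (14.6 ± 11.9) and Ccl2 (8.43 ± 7.69) ranked above Cxcr4 in Foxp3-DTR. Their SDs take in the level of Cxcr4 there, 8.21 ± 3.69, so these ranks are not settled. The ligands together summed to 1068 and 1334 CPM in WT A and C and to 1850 and 1458 CPM in Foxp3-DTR C and D.

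**Figure D4:**
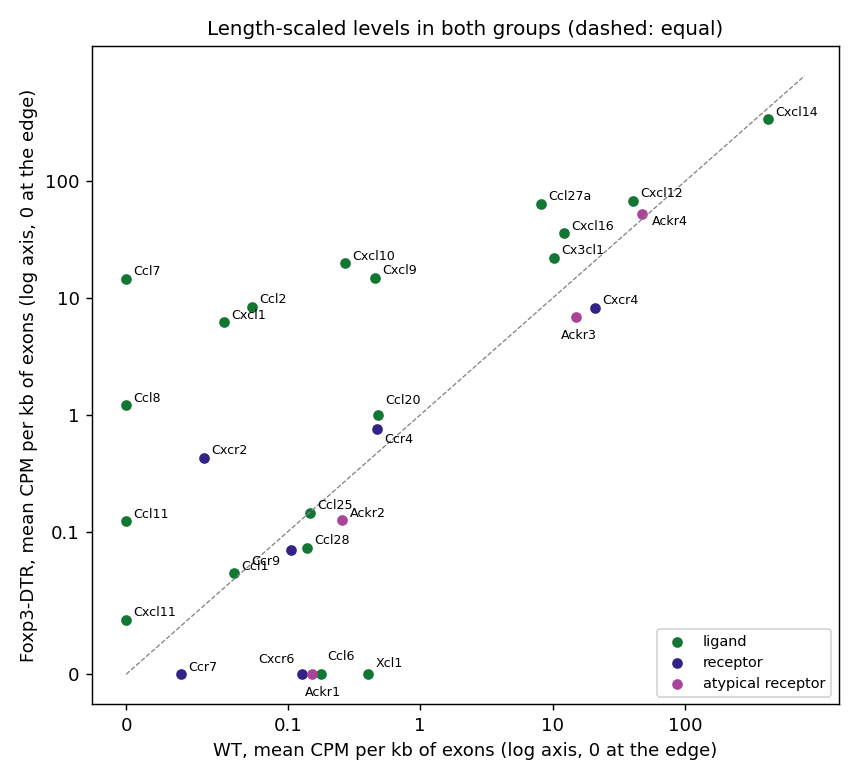
Mean CPM per kb of exons in WT (horizontal) and Foxp3-DTR (vertical), both on log axes with 0 at the edge, 1 point per member with counts. Cxcl14 and Ackr4 sit near the dashed line of equal levels, Cxcr4 and Ackr3 below it, and Ccl27a, Cxcl16 and Cx3cl1 above it.

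Other genes of the chemokine system were taken from 5 lists, of which 65 genes were tested; 2 rose and 0 fell in edgeR's test, against 0.82% and 0.426% of all tested genes. At an unadjusted p under 0.05, 5 were higher and 5 lower, against 6.76% and 7.89% of all tested genes; DESeq2 called 5 higher and 3 lower, against 3.59% and 3.77%, and limma-voom called 0. The median log2 fold change was -0.01, as it was over all tested genes. Among 19 tested genes of chemokine display, which are proteoglycan cores, Cd44 and enzymes that build or trim heparan sulfate, Sulf2, an extracellular sulfatase that removes sulfate from it, rose by 1.20 ± 0.19 on the log2 scale (edgeR adjusted p = 0.0449), with counts of 1062, 1298, 2915 and 2269 in WT A, WT C, Foxp3-DTR C and Foxp3-DTR D. Among 11 genes of messenger RNA decay, Zfp36, which binds AU-rich elements of cytokine and chemokine transcripts, rose by 1.21 ± 0.19 (edgeR adjusted p = 0.0444), with 626, 682, 1615 and 1290 counts. Neither passed without Foxp3-DTR C, Sulf2 did not pass without WT A and Zfp36 did not pass without WT C. Of genes named here after their values were seen, Hs6st1, a heparan sulfate sulfotransferase, and Zc3h12a, a ribonuclease for chemokine transcripts also known as Regnase-1, did not pass, at 0.86 ± 0.18 and 2.06 ± 0.35 on the log2 scale (edgeR adjusted p = 0.0823 and 0.0523). Both passed in DESeq2 (adjusted p = 0.00435 and 6.62e-06) and in edgeR with no filter (adjusted p = 0.0383 and 0.00843). With all 4 libraries, no other alternative passed for either gene.

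In the list of chemokine processing, 12 genes were tested and 0 passed in edgeR's test, with 3 lower at an unadjusted p under 0.05, where 7.89% of all tested genes were. The metalloprotease inhibitor Timp3 stood at -1.45 ± 0.25 in log2 fold change, at an edgeR adjusted p of 0.0543. Dpp4, a peptidase that clips and inactivates several chemokines, had 132 and 88 counts in WT and 17 and 26 in Foxp3-DTR, with a log2 fold change of -2.30 ± 0.61 and an edgeR adjusted p of 0.131. Both were lower in DESeq2, which called 2 of this list lower and 3.77% of all genes, and limma-voom called 0. In the list of receptor signalling, 20 genes were tested and 0 passed. Pik3cg, the phosphoinositide kinase downstream of chemokine receptors in leukocytes, had 97 and 114 counts in WT and 20 and 13 in Foxp3-DTR (log2 fold change -2.61 ± 0.58, edgeR adjusted p = 0.0865), and was the 1 gene of the list with an unadjusted p under 0.05 and the 1 that DESeq2 called lower; limma-voom called 0. Elmo1, which links these receptors to Rac, stood at -0.57 ± 0.27 in log2 fold change, at an edgeR adjusted p of 0.413. Of chemokine genes outside the naming rule, 3 were tested, and 0 passed by edgeR, DESeq2 or limma-voom or at an unadjusted p under 0.05. Mif, a cytokine that binds Cxcr2 and Cxcr4, had a log2 fold change of -0.67 ± 0.29, and Cklf -0.74 ± 0.42 (edgeR adjusted p = 0.368 and 0.510). Pf4, Ppbp and Xcr1 had 0 counts in all libraries.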

How the data were processed

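Poly(A) RNA of 4 libraries was sequenced from a stranded kit, per the labels' protocols. The table the authors deposited holds raw counts, as whole reads for each gene symbol. The submitters' processing notes name HTSeq 0.6.1, TopHat2 2.0.12 and build mm10. Neither the annotation nor the counter's strand setting was given in the sources used here, so reads of overlapping genes cannot be told apart. The 5 counter rows that name no gene, 62.0% to 70.1% of each library's counts, were left out.

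The comparison of Foxp3-DTR against WT used edgeR 4.0.16 under R 4.3.3 (TMM, filterByExpr, robust glmQLFit and glmQLFTest), without covariates, at a Benjamini-Hochberg adjusted p of 0.05 over all tested genes. DESeq2 1.42.0, limma-voom (limma 3.58.1), other filters and scalings, and leaving out each library were alternatives, and none was added later. The procedure was tested on simulated data. SE was derived from the fold change and F statistic. Against a group with 0 counts, folds used a floor of 3 counts over the group; 1 to 3 counts gave a ratio with an exact 95% interval. Coordinates and exon lengths are from GENCODE M21 (GRCm38), matched by symbol for 60 of 61 members. RefSeq promoters (GRCm38.p6) were found for 45 members; promoters of Ccl2, Ccl7 and Cxcl16 were not used here. Members are given by name or in a count, except that 1 is not reported by name here. Of the other lists, passing genes were named, or else the 2 smallest p. Members, lists and motifs were chosen with earlier results of these data known.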

Additional observations from a re-analysis of the deposited data

How the results depend on the processing

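With DESeq2, 489 genes were higher and 513 lower, with 8 members higher, 2 lower and 8 other chemokine system genes called. With no filter, 277 genes were higher and 252 lower, with 6 members higher and 5 other genes called. With limma-voom, 70 genes were higher and 23 lower, with 1 member (Ccl27a) higher and 0 other genes called. The main counts were 106 and 55 genes, 4 and 0 members and 2 other genes. Leaving out 1 library gave 66 to 203 genes higher, 14 to 220 lower, 2 to 7 members higher, 0 lower, and 0 to 5 other genes. RLE size factors or a filter of 10 counts in 2 libraries kept 4 and 0 members. Ccl27a passed in all 9 alternatives, Cxcl1 in 8, and Cxcl16 and Ccl7 in 5. Signs changed in some alternatives only for Ccl25, Ccl28, Ccr4 and Ccr9. Requiring 10 counts over Foxp3-DTR, or allowing 1 count over WT, left 2 members on only in Foxp3-DTR, and allowing 3 counts over all libraries gave 34 silent members. No paired analysis was possible because the groups shared only the replicate letter C. The filter on low counts kept 9 members with counts out of the main test; they were fitted with no filter and in DESeq2, which gave 21 of the 29 members with counts an adjusted p. Their few counts limit what could be detected.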
